A study of Homo sapiens with 6 samples.

Results

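A set of 10 genes of the dual-specificity phosphatase (DUSP) and Sprouty families, DUSP1, DUSP2, DUSP4, DUSP5, DUSP6, DUSP10, SPRY1, SPRY2, SPRY4 and SPRED1, were followed in THP-1 cells after knockdown of the transcription factor NFIC. They were picked by gene name as members of these families, with earlier results of these data known, and all 10 were found among the 33981 genes of the deposited count table. All 10 also passed the filter on low counts and were among the 19182 genes tested. THP-1 is a monocytic cell line established from an acute myeloid leukemia (AML). All 6 samples were THP-1 cells infected with a lentivirus, sorted for GFP 4 days after infection and sequenced as bulk mRNA, and all came from this 1 line, with no uninfected sample among them. Of these, 3 samples carried a scrambled shRNA and 3 carried an shRNA against NFIC. The control is named here as in the sample labels, whereas the study's methods describe a vector with GFP only. The study's results and a figure legend also call the control scrambled. That legend names 1 hairpin for the knockdown, so other effects of this hairpin cannot be told apart from loss of NFIC. No source states that the samples of a group came from separate cultures, so the p-values measure the spread between these samples, which may be technical.

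The ERK pathway passes signals from growth factor receptors through RAS, RAF and MEK to the ERK kinases, and it induces several of its own inhibitors. Dual-specificity phosphatases remove the phosphates from the activation loop of MAP kinases, whereas Sprouty and SPRED proteins act further upstream, between the receptor and RAF. DUSP6 is cytoplasmic and prefers ERK, DUSP5 is its nuclear counterpart, DUSP1, DUSP2 and DUSP4 are inducible nuclear phosphatases that act on more than 1 class of MAP kinase, and DUSP10 prefers the stress kinases JNK and p38.

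Total counts were between 20369543 and 24809720 per sample. At these depths 3 counts, taken as the floor, correspond to between 0.122 and 0.146 CPM (counts scaled to a common library size), a limit that covers counting error only. NFIC (chromosome 19 of GRCh38, 3314403 to 3469217) had 911, 1019 and 904 counts with scrambled shRNA, against 399, 518 and 493 with NFIC shRNA, which is 50.1% of its control mean in CPM (log2 fold change -0.99, adjusted p = 3.73e-09 from edgeR). All 10 monocytic markers on a fixed list were expressed, and their summed level was between 1525 and 1647 CPM in the scrambled samples and between 1725 and 1914 CPM in the NFIC shRNA samples, with 4 higher, 4 lower and 2 not called. Without LYZ, which rose from 572 ± 69.0 to 940 ± 104 CPM (SD, n = 3 per group), the summed level of the other 9 was lower after knockdown, at 876 to 897 CPM against 1006 to 1054 CPM in the controls. LYZ was left out with its values seen, and the other 9 moved both ways. ITGAM and CD14 were higher (log2 fold changes 0.99 and 0.65), whereas CD68, CD33 and CSF1R were lower (-1.01, -0.97 and -0.59). Of 14 markers of other cell types, 9 were in the table and 4 were tested, of which 3 were lower. The summed level of these markers ran from 9.71 to 11.7 CPM in the controls and from 4.32 to 5.76 CPM after knockdown. COL1A1, the most abundant of them in CPM, had means of 5.22 and 1.78 CPM, whereas CD3D of T cells, HBB of red cells and KRT14 of keratinocytes, named after their values were seen, had 0 counts in 5 of the 6 samples each. For both marker lists, the background over all genes tested was 29.6% called higher and 30.3% called lower. The part of either marker list in the differences of the DUSP and Sprouty genes was not tested.

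Promoter sequences of 8 of the 10 genes were present in the RefSeq table (GRCh38.p14), with 12 annotated starts among them. DUSP4 and DUSP5 had no entry. The 250 bases upstream of the start are shown for the 3 phosphatase genes that fell, DUSP10, DUSP2 and DUSP1, and for SPRY4, the gene with the largest increase. They are read 5′ to 3′ on the strand of the gene, which is the minus strand in each case, and capitals mark matches to the motifs of the NFI half-site in DUSP10, EGR in DUSP2 and SPRY4, and CRE in DUSP1. The annotated start used for SPRY4 is an internal one. Its 250 bases lie within the span of the gene (142310427 to 142326455) and not upstream of its 5′ end.
DUSP10, chr1:221742090-221742339: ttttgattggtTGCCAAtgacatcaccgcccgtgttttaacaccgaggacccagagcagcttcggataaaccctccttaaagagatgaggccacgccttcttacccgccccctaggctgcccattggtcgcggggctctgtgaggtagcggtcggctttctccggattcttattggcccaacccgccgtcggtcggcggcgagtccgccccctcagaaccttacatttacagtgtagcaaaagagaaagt
DUSP2, chr2:96145441-96145690: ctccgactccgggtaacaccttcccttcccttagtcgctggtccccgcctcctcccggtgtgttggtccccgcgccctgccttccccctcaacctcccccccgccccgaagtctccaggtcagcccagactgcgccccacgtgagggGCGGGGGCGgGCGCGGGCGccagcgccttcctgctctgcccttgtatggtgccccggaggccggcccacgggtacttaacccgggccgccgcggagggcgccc
DUSP1, chr5:172771196-172771445: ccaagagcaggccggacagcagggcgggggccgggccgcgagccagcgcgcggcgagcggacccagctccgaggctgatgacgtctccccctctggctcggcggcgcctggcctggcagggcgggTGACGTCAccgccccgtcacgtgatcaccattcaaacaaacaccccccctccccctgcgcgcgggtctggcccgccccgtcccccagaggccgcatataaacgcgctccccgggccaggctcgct
SPRY4, chr5:142324248-142324497: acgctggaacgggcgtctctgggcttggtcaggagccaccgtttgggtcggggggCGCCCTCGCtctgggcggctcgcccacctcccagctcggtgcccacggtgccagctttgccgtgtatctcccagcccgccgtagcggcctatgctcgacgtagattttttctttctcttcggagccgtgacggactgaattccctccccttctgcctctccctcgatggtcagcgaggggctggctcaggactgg

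A set of 6 motifs was searched on both strands in windows of 250 bases before to 50 bases after each start. The NFI half-site TTGGCA, the short sequence bound by each subunit of an NFI dimer, was found in 1 of the 12 windows, the one at the upstream start of DUSP10, at position -239. It was present in 12.5% of all 35116 promoter windows in the table. The cyclic AMP response element CRE, TGACGTCA, was found at position -125 of DUSP1 and in 1.85% of all windows. The EGR motif GCGNGGGCG was present in 4 of the 12 windows, from DUSP2, SPRY1, SPRY2 and SPRY4, and in 9.43% of all windows. The ETS motif CCGGAA was found in SPRY1 and SPRY2 and in 17.2% of all windows. The EGR and ETS matches of SPRY1 lay in the window of an internal start (123398136 to 123398435). The window at the 5′ start of SPRY1 held none of the 6 motifs. The SP motif GGGCGG, which can overlap the EGR motif, was found in 9 of the 12 windows and in 45.0% of all windows, and the AP-1 motif TGANTCA was in none of the 12 and in 7.71% of all. DUSP6 and SPRED1 held none of the 5 motifs other than SP. These matches describe letters in a window and not binding.

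With NFIC shRNA, 3 of the 10 genes were higher, 5 were lower and 2 were not called in edgeR's quasi-likelihood test (adjusted p under 0.05), with Benjamini-Hochberg adjustment over all 19182 genes. Calls were common in this comparison, with 59.9% of all genes tested called, 29.6% higher and 30.3% lower, so that a share of 8 in 10 has to be read against this background. The samples of the groups did not overlap for 8 of the 10 genes and for 65.2% of all genes tested. The median log2 fold change of the 10 genes was -0.20, against -0.011 over all genes tested. The higher genes were SPRY4, SPRED1 and DUSP5, and the lower genes were DUSP10, DUSP2, DUSP1, SPRY1 and SPRY2. DUSP4 and DUSP6 were not called. Neither family moved in 1 direction, but DUSP5 was the only phosphatase called higher, and its call was lost in 4 of 14 alternatives. In bulk samples, fewer cells that express a gene and less RNA per cell cannot be told apart.

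**Figure D1:**
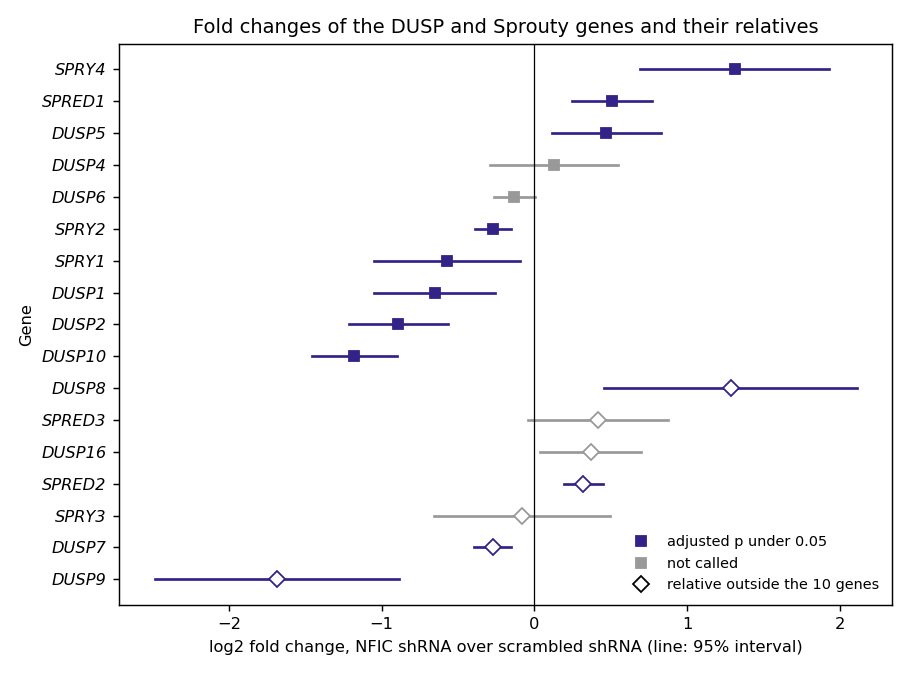
Log2 fold change of NFIC shRNA over scrambled shRNA (x axis) for the 10 genes (filled squares) and 7 relatives (open diamonds), with lines for the 95% interval from edgeR and grey for genes not called. DUSP10, DUSP2, DUSP1, SPRY1 and SPRY2 lie below 0 and SPRY4, SPRED1 and DUSP5 above it, whereas the intervals of DUSP4 and DUSP6 include 0.

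DUSP10, the phosphatase with a preference for JNK and p38, showed the largest decrease of the 10 genes. DUSP10 (ENSG00000143507, chromosome 1, 221701424 to 221742089) had 240, 216 and 237 counts in scrambled replicates 1, 2 and 3 and 87, 108 and 109 in NFIC shRNA replicates 1, 2 and 3. These correspond to 11.1, 8.78 and 11.1 CPM and to 4.22, 4.65 and 4.72 CPM. The highest NFIC shRNA sample was well below the lowest scrambled sample. The mean fell from 10.3 ± 1.33 to 4.53 ± 0.273 CPM (SD, n = 3 per group), which left 44.0% of the control level. The log2 fold change of DUSP10 was -1.18 (SE 0.13, adjusted p = 6.81e-07 from edgeR).

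DUSP2, a nuclear phosphatase abundant in activated leukocytes, was also lower. DUSP2 (ENSG00000158050, chromosome 2, 96143169 to 96145440) had 129, 163 and 107 counts with scrambled shRNA, against 66, 73 and 73 with NFIC shRNA. Its levels were 5.96, 6.62 and 5.0 CPM in the scrambled samples and 3.20, 3.15 and 3.16 CPM in the NFIC shRNA samples. The 3 NFIC shRNA samples were nearly identical and all lay below the scrambled samples. The mean fell from 5.86 ± 0.818 to 3.17 ± 0.0284 CPM (SD, n = 3 per group), and the log2 fold change of DUSP2 was -0.89 (SE 0.15, adjusted p = 7.92e-05 from edgeR).

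DUSP1, an immediate early gene that restrains stress and inflammatory signaling, fell with more scatter. DUSP1 (ENSG00000120129, chromosome 5, 172768096 to 172771195) had 166, 138 and 100 counts with scrambled shRNA, against 81, 102 and 71 with NFIC shRNA. Its levels were 7.67, 5.61 and 4.67 CPM in the scrambled samples and 3.93, 4.40 and 3.08 CPM in the NFIC shRNA samples. The groups did not overlap, but the lowest scrambled and the highest NFIC shRNA sample were close, and scrambled replicate 1 was the highest of the 6. The mean fell from 5.98 ± 1.54 to 3.80 ± 0.669 CPM (SD, n = 3 per group), and the log2 fold change of DUSP1 was -0.65 (SE 0.19, adjusted p = 0.00624 from edgeR). Without scrambled replicate 1 it was -0.45 and the call was lost (adjusted p = 0.0531 from edgeR).

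DUSP6, the cytoplasmic ERK phosphatase, had the highest level per length of the 10 genes and was not called. DUSP6 (ENSG00000139318, chromosome 12, 89347235 to 89352501) had 1770, 2173 and 2042 counts with scrambled shRNA, against 1602, 1997 and 1813 with NFIC shRNA. Its levels were 81.8, 88.3 and 95.4 CPM in the scrambled samples and 77.7, 86.1 and 78.6 CPM in the NFIC shRNA samples. The groups overlapped, since NFIC shRNA replicate 2 lay above scrambled replicate 1. The means were 88.5 ± 6.77 and 80.8 ± 4.59 CPM (SD, n = 3 per group), and the log2 fold change of DUSP6 was -0.13 (95% interval -0.27 to 0.0029, adjusted p = 0.0850 from edgeR). DUSP6 passed the threshold without scrambled replicate 1 (log2 fold change -0.19, adjusted p = 0.0291 from edgeR), without NFIC shRNA replicate 2 (-0.18, adjusted p = 0.0340 from edgeR) and in 2 other alternatives. Without scrambled replicate 3 the log2 fold change came to -0.079 (adjusted p = 0.365 from edgeR) and without NFIC shRNA replicate 1 to -0.099 (adjusted p = 0.282 from edgeR). The lncRNA AC024909.1, named here after its values were seen, overlaps DUSP6 on the opposite strand from 89351015 to 89353271. It had 519, 601 and 577 counts with scrambled shRNA, against 476, 601 and 518 with NFIC shRNA, a log2 fold change of -0.076 (adjusted p = 0.436 from edgeR). The library kit, as named in the labels, does not mark strand, so reads from the overlap cannot be told apart.

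DUSP5, the nuclear phosphatase specific for ERK, moved in the other direction. DUSP5 (ENSG00000138166, chromosome 10, 110497907 to 110511533) had 66, 61 and 50 counts with scrambled shRNA, against 75, 85 and 83 with NFIC shRNA. Its levels were 3.05, 2.48 and 2.34 CPM in the scrambled samples and 3.64, 3.66 and 3.60 CPM in the NFIC shRNA samples. Each NFIC shRNA sample was higher than the highest scrambled sample. The mean rose from 2.62 ± 0.379 to 3.63 ± 0.0334 CPM (SD, n = 3 per group), and the log2 fold change of DUSP5 was 0.47 (SE 0.17, adjusted p = 0.0234 from edgeR). This call was lost with DESeq2 (adjusted p = 0.0959) and, in edgeR, without scrambled replicate 2 (log2 fold change 0.43, adjusted p = 0.0678), without scrambled replicate 3 (0.39, adjusted p = 0.0988) and without NFIC shRNA replicate 1 (0.48, adjusted p = 0.0509).

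DUSP5P1 is a processed pseudogene, an intron-less copy of DUSP5 on chromosome 1 (228650241 to 228651379), and is named here after its values were seen. It had more counts than DUSP5 itself, 168, 159 and 161 with scrambled shRNA, against 235, 286 and 247 with NFIC shRNA. The mean of DUSP5P1 rose from 7.25 ± 0.694 to 11.5 ± 0.813 CPM (SD, n = 3 per group), with a log2 fold change of 0.67 (SE 0.11, adjusted p = 7.25e-05 from edgeR). Reads of near-identical copies can be assigned to either gene, so the value of DUSP5 is uncertain to that extent.

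DUSP4, a nuclear phosphatase closely related to DUSP1, had few counts and did not pass the test. DUSP4 (ENSG00000120875, chromosome 8, 29333064 to 29350684) had 47, 44 and 42 counts with scrambled shRNA, against 44, 55 and 45 with NFIC shRNA. Its means were 1.97 ± 0.193 and 2.15 ± 0.211 CPM (SD, n = 3 per group), with overlapping groups. The log2 fold change of DUSP4 was 0.13 with a 95% interval from -0.29 to 0.55 (adjusted p = 0.597 from edgeR).

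Among the Sprouty genes, whose products interfere with signaling from receptor tyrosine kinases to RAS and RAF, SPRY2 had by far the highest level per length. SPRY2 (ENSG00000136158, chromosome 13, 80335976 to 80341126) had 1307, 1572 and 1339 counts with scrambled shRNA, against 1055, 1217 and 1183 with NFIC shRNA. Its levels were 60.4, 63.9 and 62.5 CPM in the scrambled samples and 51.2, 52.5 and 51.3 CPM in the NFIC shRNA samples. The decrease was small, but the spread within each group was smaller and the groups were well apart. The mean fell from 62.3 ± 1.74 to 51.6 ± 0.709 CPM (SD, n = 3 per group), which left 82.9% of the control level, and the log2 fold change of SPRY2 was -0.27 (SE 0.057, adjusted p = 5.50e-04 from edgeR).

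SPRY1 was expressed at a low level and was lower with NFIC shRNA. SPRY1 (ENSG00000164056, chromosome 4, 123396795 to 123403760) had 45, 43 and 37 counts with scrambled shRNA, against 27, 28 and 28 with NFIC shRNA. Its levels were 2.08, 1.75 and 1.73 CPM in the scrambled samples and 1.31, 1.21 and 1.21 CPM in the NFIC shRNA samples. The groups did not overlap. The log2 fold change of SPRY1 was -0.57 (SE 0.23, adjusted p = 0.0373 from edgeR), and this call was lost in 8 of 14 alternatives, in which the adjusted p reached 0.187 with DESeq2. Leaving out any sample other than scrambled replicate 2 ended the call, with log2 fold changes between -0.62 and -0.49 and adjusted p of at most 0.119 from edgeR.

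SPRY4, in contrast, rose from the lowest level per length of the 10 genes. SPRY4 (ENSG00000187678, chromosome 5, 142310427 to 142326455) had 13, 27 and 15 counts with scrambled shRNA, against 42, 34 and 59 with NFIC shRNA. Its levels were 0.601, 1.10 and 0.701 CPM in the scrambled samples and 2.04, 1.47 and 2.56 CPM in the NFIC shRNA samples. The lowest NFIC shRNA sample was above the highest scrambled sample, although values scattered widely within each group. The mean rose from 0.800 ± 0.262 to 2.02 ± 0.546 CPM (SD, n = 3 per group), a 2.53-fold difference of means, and the log2 fold change of SPRY4 was 1.31 (95% interval 0.69 to 1.93, adjusted p = 9.40e-04 from edgeR). It was between 1.10 and 1.62 when 1 sample was left out, and the call was kept each time. The antisense gene SPRY4-AS1, named after its values were seen, had at most 2 counts in any sample.

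SPRED1, a Sprouty-related protein that brings the RAS inhibitor neurofibromin to the membrane, was higher as well. SPRED1 (ENSG00000166068, chromosome 15, 38252836 to 38357249) had 127, 195 and 139 counts with scrambled shRNA, against 206, 219 and 221 with NFIC shRNA. Its levels were 5.87, 7.92 and 6.49 CPM in the scrambled samples and 9.99, 9.44 and 9.58 CPM in the NFIC shRNA samples. The groups did not overlap, with scrambled replicate 2 nearest to the NFIC shRNA samples. The mean rose from 6.76 ± 1.05 to 9.67 ± 0.289 CPM (SD, n = 3 per group), a 1.43-fold difference, and the log2 fold change of SPRED1 was 0.51 (SE 0.12, adjusted p = 0.00191 from edgeR).

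**Figure D2:**
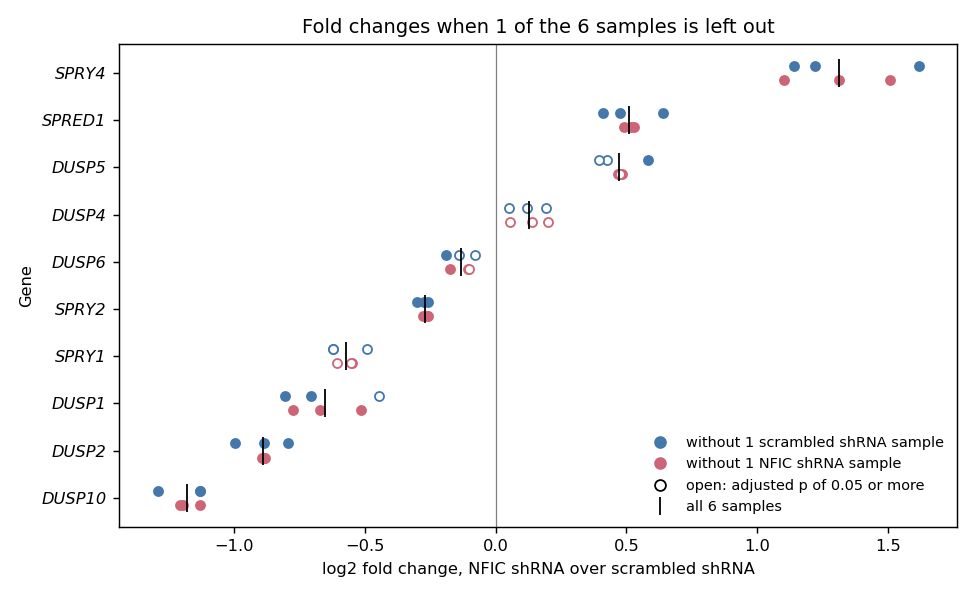
Log2 fold change (x axis) of each of the 10 genes with all 6 samples (black tick) and with 1 sample left out (points, blue for a scrambled and red for an NFIC shRNA sample, open where the adjusted p from edgeR was 0.05 or more). SPRY4, SPRED1, SPRY2, DUSP2 and DUSP10 keep filled points throughout, whereas SPRY1 has open points in 5 of 6 fits and no point crosses 0.

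To compare the genes with each other, CPM was divided by the gene length in kilobases. On this scale DUSP6 (22.9 ± 1.76) and SPRY2 (19.4 ± 0.541; SD, n = 3) were the highest of the 10 genes in the scrambled samples. DUSP10 (3.65 ± 0.471), DUSP2 (3.04 ± 0.424) and DUSP1 (2.97 ± 0.764) followed, and neighbors among these 3 overlapped. DUSP5 (1.03 ± 0.149) and SPRED1 (0.873 ± 0.136) also overlapped. SPRY1 (0.467 ± 0.050), DUSP4 (0.271 ± 0.0265) and SPRY4 (0.122 ± 0.0400) were the lowest and were apart from each other.

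With NFIC shRNA, DUSP6 (20.9 ± 1.19 CPM per kilobase) and SPRY2 (16.1 ± 0.221) kept the first places. DUSP1 (1.89 ± 0.332) then stood above DUSP2 (1.64 ± 0.0147) and DUSP10 (1.60 ± 0.0965), but again neighbors overlapped. DUSP5 had 1.43 ± 0.0132 and SPRED1 1.25 ± 0.0372, so that the distance from DUSP10 to DUSP5 was smaller than in the scrambled samples. SPRY1 (0.314 ± 0.0145), SPRY4 (0.308 ± 0.0832) and DUSP4 (0.296 ± 0.0290) overlapped at the lower end.

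The summed level of the 10 genes was between 53.7 and 55.6 CPM per kilobase in the scrambled samples and between 44.8 and 47.6 in the NFIC shRNA samples. For the 6 phosphatases it was between 33.4 and 34.7 and between 26.9 and 29.5, respectively. DUSP6 made up between 63.2% and 71.2% of the phosphatase sum with scrambled shRNA and between 74.7% and 75.7% with NFIC shRNA, whereas the share of DUSP10 was between 9.29% and 11.7% and between 5.54% and 6.21%. The higher share of DUSP6 thus went together with a level that was not called as changed. In the sum of the 3 Sprouty genes and SPRED1, SPRY2 made up between 92.4% and 93.4% with scrambled shRNA and between 89.2% and 90.3% with NFIC shRNA. SPRED1 held between 3.75% and 4.75% and between 6.74% and 7.22%, and SPRY4 between 0.454% and 0.777% and between 1.24% and 2.18%. None of the shares above overlapped between the groups, but the share of DUSP1 in the phosphatase sum did. The DUSP1 share was between 6.68% and 11.4% with scrambled shRNA and between 5.69% and 7.39% with NFIC shRNA. Levels of single genes often lacked overlap too, at 65.2% of those tested, and shares of 1 sum depend on each other. An exact permutation test of 3 against 3 samples cannot give a two-sided p under 0.1, and none was run.

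**Figure D3:**
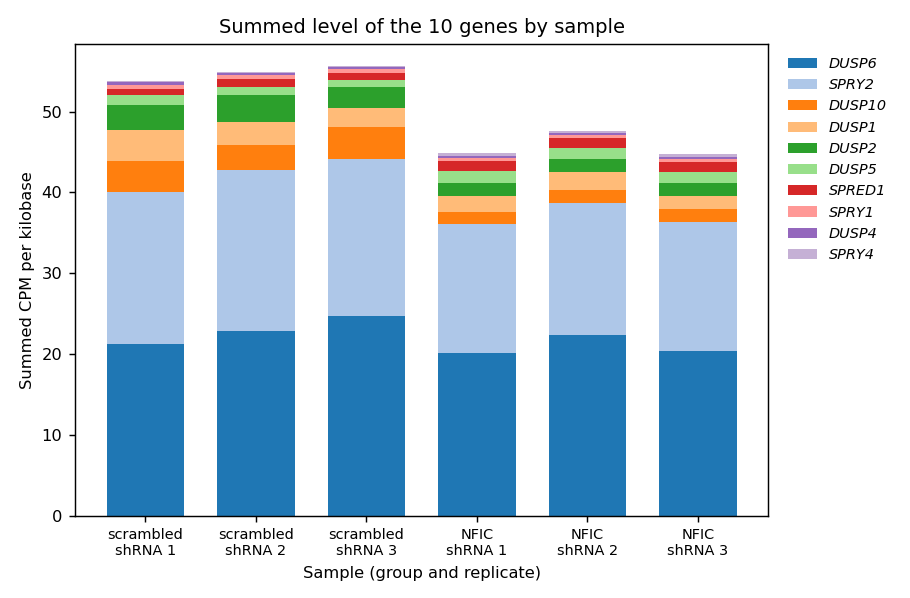
Summed level of the 10 genes in each of the 6 samples (y axis, CPM per kilobase), stacked by gene. DUSP6 and SPRY2 fill most of each bar, and the 3 NFIC shRNA bars (44.8 to 47.6) are below the 3 scrambled bars (53.7 to 55.6).

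The closest relatives of these genes were mixed too. Of 7 other MAP kinase phosphatases, Sprouty and SPRED genes, 2 were higher, 2 were lower and 3 were not called, beside 29.6% higher and 30.3% lower over all genes tested. SPRED2 rose from 69.4 ± 4.03 to 86.8 ± 4.89 CPM (SD, n = 3 per group; log2 fold change 0.32, adjusted p = 2.14e-04 from edgeR), the same direction as SPRED1. DUSP7, an ERK phosphatase of the same cytoplasmic group as DUSP6, fell from 117 ± 2.23 to 97.0 ± 6.58 CPM (SD, n = 3 per group; log2 fold change -0.27, adjusted p = 4.85e-04 from edgeR). The other 5 are named to account for the whole list, after their values were seen. DUSP9, the remaining phosphatase of the DUSP6 group, had a log2 fold change of -1.69, with means of 0.972 CPM (scrambled) and 0.298 CPM (NFIC shRNA). DUSP8 had 1.29, with means of 0.441 and 1.05 CPM, respectively. DUSP16, SPRED3 and SPRY3 were not called, with log2 fold changes of 0.37, 0.42 and -0.081.

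The atypical DUSPs, small phosphatases that lack the MAP kinase binding domain, had 2 higher, 7 lower and 2 not called of 11 tested, with a median log2 fold change of -0.38. Among all genes tested, 29.6% were higher and 30.3% lower. DUSP3, which can also act on ERK and JNK, fell from 114 ± 4.07 to 56.3 ± 4.45 CPM (SD, n = 3 per group; log2 fold change -1.01, adjusted p = 4.77e-10 from edgeR). DUSP15 and DUSP23 had log2 fold changes of -2.28 and -0.52, and DUSP12 and the pseudophosphatase STYX had 0.31 and 0.29. The count of lower genes in this list was 4 without scrambled replicate 1 and 4 without NFIC shRNA replicate 2.

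Of the 20 genes of the RAS-RAF-MEK-ERK cascade, 9 were higher, 3 were lower and 8 were not called, with a median log2 fold change of 0.11. The shares over all genes tested were 29.6% higher and 30.3% lower. MAPK3, which encodes an ERK kinase, and the RAS GTPase-activating protein RASA1 were among the higher genes, with log2 fold changes of 0.52 and 0.50. RPS6KA3, a kinase activated by ERK, the scaffold KSR1 and the MEK gene MAP2K2 were lower, with -0.76, -0.30 and -0.24.

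Of the 14 genes of the JNK and p38 cascades, on which DUSP10 and DUSP1 act, 8 were higher, 4 were lower and 2 were not called, with a median log2 fold change of 0.19. For all genes tested, the shares were 29.6% higher and 30.3% lower. The upstream kinases MAP2K6, MAP2K4 and MAP3K5 were higher, with log2 fold changes of 0.76, 0.73 and 0.72. MAP2K3, which activates p38, fell from 18.0 ± 0.332 to 8.86 ± 0.170 CPM (SD, n = 3 per group; log2 fold change -1.02, adjusted p = 3.64e-08 from edgeR), and the p38 genes MAPK11 and MAPK12 had -0.69 and -0.45. The other p38 genes, MAPK14 and MAPK13, are named after their values were seen. MAPK14 rose from 181 ± 5.35 to 226 ± 3.77 CPM (SD, n = 3 per group; log2 fold change 0.32, adjusted p = 1.88e-05 from edgeR), and MAPK13 was not called.

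Genes known to be induced by ERK signaling, as DUSP6 and SPRY4 are, did not move in 1 direction either. Of the 17 tested, 9 were higher, 3 were lower and 5 were not called, with a median log2 fold change of 0.29. Across all genes tested, 29.6% were higher and 30.3% lower. ETV1, a transcription factor of the PEA3 group, rose from 1.16 ± 0.514 to 4.85 ± 0.476 CPM (SD, n = 3 per group; log2 fold change 2.06, adjusted p = 6.69e-07 from edgeR), and PHLDA1 and FOS had 0.95 and 0.83. CCND1, which encodes cyclin D1, and TRIB1 were lower, with log2 fold changes of -1.24 and -0.41, and MYC had -1.39. EGR2 and EGR3, named after their values were seen, were not tested because of low counts, with at most 19 and 7 counts in a sample.

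Other inhibitors of receptor and RAS signaling had 4 higher, 1 lower and 3 not called of 8 tested, with a median log2 fold change of 0.23. The background over all genes tested was 29.6% higher and 30.3% lower. RASA2, a RAS GTPase-activating protein, rose from 42.3 ± 0.688 to 70.6 ± 3.14 CPM (SD, n = 3 per group; log2 fold change 0.74, adjusted p = 1.19e-08 from edgeR). DOK1, an adaptor that recruits RAS GTPase-activating protein, and SPSB1 had 0.52 and 0.33. ERRFI1, an inhibitor of the EGF receptor, fell from 4.88 ± 0.587 to 2.71 ± 0.604 CPM (SD, n = 3 per group; log2 fold change -0.84, adjusted p = 5.68e-04 from edgeR).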

How the data were processed

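The bulk mRNA sequencing of 3 control (scrambled shRNA) and 3 NFIC knockdown samples of THP-1 cells was analyzed. The authors trimmed reads with Trim Galore, mapped them to GRCh38 with STAR and counted them per gene with featureCounts on Ensembl release 96, and the counts were deposited without normalization. The versions of these tools and the strand setting are not given in the sources used here. The deposited FPKM values, made by the authors from normalized counts and gene length, served as an alternative for levels. The deposited table also holds 6 columns of normalized counts and the authors' DESeq2 comparison (mean, log2 fold change, standard error, statistic and p-values), which were not used.

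Counts were tested with edgeR 4.0.16 (R 4.3.3) using TMM, its filter on low counts and the robust quasi-likelihood test without a replicate block, with Benjamini-Hochberg adjustment over 19182 genes and a threshold of 0.05. CPM values were TMM-scaled and levels were divided by the gene length in the table. SE is the size of the log2 fold change divided by the square root of F. Total counts were 20369543 to 24809720 per sample, and the biological coefficient of variation was 0.0606. Gene positions are from GENCODE. The alternatives were DESeq2 1.42.0, other scalings and filters, blocks, a threshold of 0.01 and each sample left out.

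The 10 genes, the gene lists, motifs and tests were chosen with earlier results of these data known. The named genes were the 10 genes, NFIC and, per list, up to 3 increases and 3 decreases that passed the threshold, had no overlap between the groups and reached a mean log2 CPM of 1. Genes named beyond this rule are stated as such. A gene chosen by this rule from the lists is not reported here.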

Additional observations from a re-analysis of the deposited data

How the results depend on the processing

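Over 14 alternatives, 137 of 154 recomputed log2 fold changes of the 10 genes and NFIC kept their direction and their side of the threshold, and none reversed. The exceptions were DUSP1 (1), DUSP5 (4), DUSP6 (4) and SPRY1 (8). Of the 10 genes, between 2 and 3 were higher and between 4 and 6 were lower in every setting, including an adjusted p under 0.01. DUSP6 was lower with upper-quartile normalization (log2 fold change -0.19, adjusted p = 0.0171 from edgeR), the scaling that moved the median of all genes most, to -0.068. SPRY1 was not called without the filter on low counts (adjusted p = 0.0771 from edgeR). None of 40 recomputed levels moved by 1 SD or more with the deposited FPKM or with total counts. Among the 7 relatives, 1 gene was higher without scrambled replicate 2. With a minimum of 10 counts in every sample, 1 was higher and 1 lower, because that filter left DUSP8 and DUSP9 untested. Of the atypical DUSPs 4 were lower at an adjusted p under 0.01. The counts behind SPRY4, SPRY1, DUSP4 and DUSP5 were at most 85 in any sample, which limits their precision.

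Across genes, control and knockdown samples with the same replicate number deviated from their group means with correlations of 0.056, -0.086 and -0.045. Not every sample correlated best with its own number. These values show no pairing by replicate number, but deviations from a mean of 3 samples cannot exclude a shared culture or day. With C1 and N1 and C3 and N3 paired by the number in their names and the remaining C4 and N2 paired as a leftover, which the names do not give, the correlations were 0.056, 0.145 and 0.027. With the replicate block, 5439 genes were higher and 5544 lower over all genes, and of the 10 genes 3 were higher and 4 lower. SPRY1 then had a log2 fold change of -0.57 (adjusted p = 0.0538 from edgeR). With a replicate block on the pairs by name, 5981 genes were higher and 6118 lower over all genes, of the 10 genes 3 were higher and 6 lower, and DUSP6 was called (log2 fold change -0.13, adjusted p = 0.0236 from edgeR).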
